A study of Mus musculus with 6 samples.

Results

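Connexins and pannexins are the proteins that form gap junction channels and related large pores in the plasma membrane, and 8 of their genes were followed here in mouse neural stem cells (NSCs) of WT and Setd5+/- genotype. The 8 genes were Gja1, Gjb2, Gjb6, Gjc1, Gjc3, Gjd2, Panx1 and Panx2. They were taken by symbol from the 52438 genes with values in the deposited expression table, and they belong to a family of 23 connexin and pannexin genes in that table. They had been picked with their expression in this very comparison known, so their values are a description and carry no test. The 15 family genes that were not picked are counted as well.

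The cells were primary NSCs from the embryonic mouse telencephalic cortex, grown attached to Matrigel in serum-free medium with bFGF and EGF, at 21% oxygen in both groups. One group was wild type (WT) and the other carried 1 mutated copy of Setd5, a chromatin-associated protein encoded on chromosome 6, introduced by CRISPR-Cas9. RNA-seq was run on 3 samples of each genotype, with 9995980 to 10004948 reads counted on genes per WT sample and 7143309 to 7146147 per Setd5+/- sample. The 3 samples of a genotype differed from each other by no more than sampling noise (chi-square per degree of freedom of 0.958 to 0.981 in the 6 comparisons within a genotype, against 31.70 to 31.94 in the 9 between genotypes). They were therefore counted as parts of 1 library, n is 1 library per genotype, and no p-value is given. The mutant samples bear the name of a single clone, A3, which is not among the clones named in the study's text, and genotype, clone, library and sequencing lane cannot be told apart. Setd5 itself, the targeted gene, stood at 2498, 2749 and 2780 normalized counts in the WT samples against 2151, 1990 and 2055 in the mutant ones, so that the mutant mean was 0.772 times the WT mean (95% counting interval 0.736 to 0.81).

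A normalized count is the number of reads on a gene divided by the size factor of its sample, and 1 read was worth between 0.827 and 0.829 normalized counts in WT and 1.19 in Setd5+/-. Fold values below are ratios of the mean normalized counts of the 3 samples, with exact 95% intervals that cover counting error only. Log2 fold changes are Setd5+/- minus WT on the scale of log2(mean normalized count + 1), which understates changes of low genes. A gene was called when that value was at least 1 in size, termed past a doubling, among the 16266 genes whose 6 samples averaged 10 normalized counts or more, termed tested. Of these genes 2666 (16.4%) were past a doubling, and the median log2 fold change of all tested genes was −0.02.

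Connexins are proteins that span the membrane several times and assemble into a ring, which docks with a ring on the neighbouring cell and lets ions and small metabolites pass between the cytoplasms. Different connexins mark different cells of the brain, and only some of them can dock with each other. In the embryonic cortex, gap junctions couple the dividing radial glia and serve adhesion during migration. Pannexins have the same membrane layout but form pores to the outside of the cell, best known for the release of ATP.

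The NSC label was checked against markers, and Slc1a3, Sox2, Nes, Vim and Sox9 were between 1326 and 21117 normalized counts as the mean of either genotype. In WT and Setd5+/-, Fabp7 was at 36015 and 11490, Hes5 at 1222 and 1650, and Hes1 at 475.7 and 223.6. Pax6 was at 402.0 and 529.7, and Prom1 at 24.6 and 2.38. The oligodendrocyte lineage markers Olig1 (28867 and 15491) and Olig2 (10646 and 6078) were also high, so the NSC markers do not set the cells apart from that lineage. Of 10 NSC markers tested, 3 were past a doubling (30%, against 16.4% of all tested genes). They were Prom1, Fabp7 and Hes1, all lower in Setd5+/-. The marker lists of endothelial and of epithelial cells each summed to at most 26.2 normalized counts in any sample. The list of mesenchymal or meningeal cells summed to 111.7 to 125.0 in WT and 64.4 to 69.1 in Setd5+/- samples, mostly from Foxc1, and that of microglia to 78.6 to 116.9 and 48.9 to 70.3, mostly from Csf1r, while Cx3cr1, Ptprc and C1qa were at 0. Their part in the members' values was not tested. In a culture of mixed states, fewer cells of a type and less RNA per cell cannot be told apart.

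The make-up of the connexin transcripts differed between the genotypes. Gjc1 and Gjd2, which stood at 201.2 and 233.5 normalized counts in WT NSCs, were nearly missing from Setd5+/- NSCs. Gjc3 was 3.1 times higher in the mutant cells than in WT. Gja1 and Panx1 were lower by smaller amounts, and Gjb2, Gjb6 and Panx2 were near the limit of detection in both genotypes. Of the 8 members, 5 were tested and 3 of these were past a doubling, Gjc3 higher and Gjc1 and Gjd2 lower. The share over all tested genes was 16.4% in either direction, 10.3% higher and 6.14% lower. These counts are those of genes picked from this contrast.

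**Figure D1:**
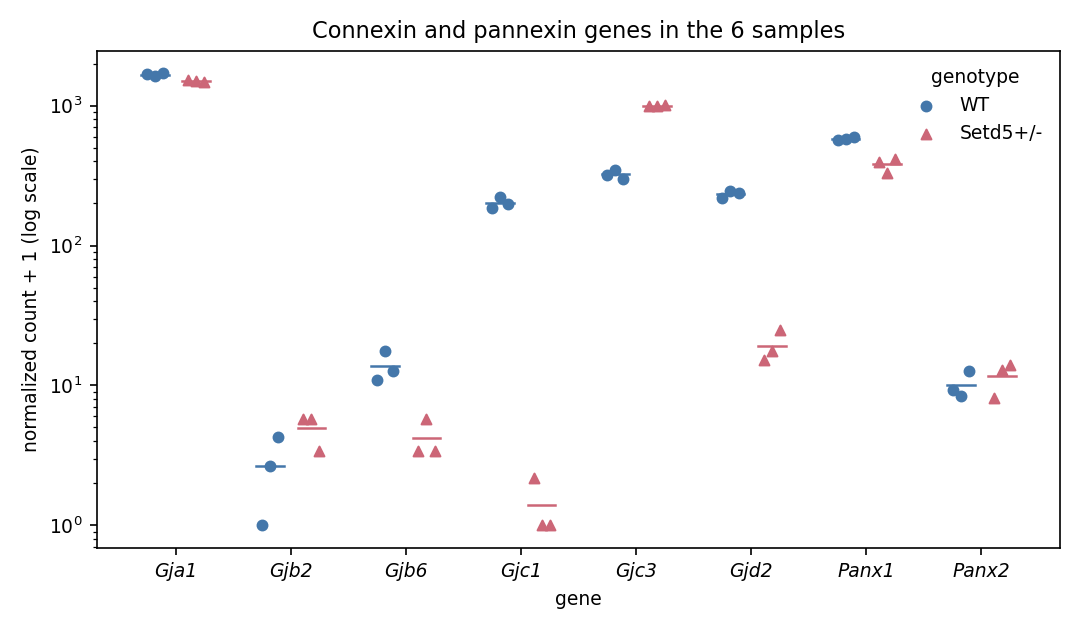
Normalized count plus 1, on a log scale, of each member in the 3 WT samples (circles) and the 3 Setd5+/- samples (triangles), with a line at the mean of each genotype after 1 was added. The points of Gjc1, Gjd2, Gjb6, Panx1 and Gja1 lie lower in Setd5+/- without overlap, those of Gjc3 higher, and those of Gjb2 and Panx2 overlap. The samples of a genotype are parts of 1 library, and a lack of overlap was common. It was seen in 65.3% of all tested genes, 32.4% higher and 32.9% lower in Setd5+/-.

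The promoters of 3 of these members are printed below because the genes they belong to took 3 different courses, being much lower (Gjd2), higher (Gjc3) and slightly lower (Gja1) in Setd5+/- NSCs. Each is the run of 250 bases before the RefSeq start site on GRCm38.p6, 5′ to 3′ on the strand of the gene, with every CG dinucleotide in capitals. The window of Gjd2 is chr2:114013620-114013869, that of Gjc3 chr5:137963099-137963348, both on the minus strand, and that of Gja1 chr10:56377050-56377299 on the plus strand.
Gjd2: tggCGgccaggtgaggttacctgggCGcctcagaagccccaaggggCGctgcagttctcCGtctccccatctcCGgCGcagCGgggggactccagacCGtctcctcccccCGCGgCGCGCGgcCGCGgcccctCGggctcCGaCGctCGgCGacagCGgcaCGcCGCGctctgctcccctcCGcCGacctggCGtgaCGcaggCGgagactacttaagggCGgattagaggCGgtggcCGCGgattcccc
Gjc3: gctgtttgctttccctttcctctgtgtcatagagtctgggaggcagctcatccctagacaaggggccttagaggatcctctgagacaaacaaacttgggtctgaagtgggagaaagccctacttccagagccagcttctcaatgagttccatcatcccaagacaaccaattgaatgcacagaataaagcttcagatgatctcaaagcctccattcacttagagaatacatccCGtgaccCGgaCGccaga
Gja1: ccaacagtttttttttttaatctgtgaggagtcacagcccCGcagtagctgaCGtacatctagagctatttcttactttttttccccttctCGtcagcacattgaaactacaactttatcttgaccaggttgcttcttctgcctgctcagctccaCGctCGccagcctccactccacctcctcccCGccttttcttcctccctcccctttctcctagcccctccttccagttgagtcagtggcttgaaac
The Gjd2 window held 33 CG dinucleotides, and 4.03% of the 32851 promoter windows of this length in the reference table held as many or more. The Gjc3 window held 3 and the Gja1 window 6, which is also the median over all windows. Entries were found for 6 of the 8 members, without Gjc1 and Panx2, and the other windows held 18 (Gjb2), 17 (Panx1) and 5 (Gjb6) CG dinucleotides. The letters GGGCGG, searched on both strands, occurred once in the Gjd2 window and in 2 places in the Gjb2 window, against 32.7% of all windows with at least 1. The palindrome TGANTCA occurred once in the Gja1 window and in none of the other 5, and in 6.75% of all windows. TATAAA was found in none of the 6 and in 12.4% of all windows. These are matches of letters, and no binding or methylation was measured.

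Gjc1 encodes Cx45, a connexin found widely in embryonic tissue and in the vessel wall. The gene lies on the minus strand of chromosome 11 from 102799579 to 102819700. The WT samples had 183.3, 221.7 and 198.8 normalized counts of it, the Setd5+/- samples 1.19, 0 and 0. All 3 WT samples were far above every mutant sample, and the mutant library held a single read of the gene. In reads the 2 libraries held 729 and 1, which gave a mean 507 times higher in WT (95% counting interval 45.3 to 10050). The log2 fold change was −7.18, and 3 of the 16266 tested genes, Gjc1 included, had a value as low or lower. The genes on either side did not go with it: Eftud2, a spliceosome GTPase 18.8 kb away, was at 1102 normalized counts against 1061 in the mutant, and Adam11, 19.3 kb to the other side, had 86.7 and 75.4.

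Gjd2 encodes Cx36, the main connexin of electrical synapses between neurons. It lies on the minus strand of chromosome 2 from 114009601 to 114013619, downstream of the CG-rich window shown above. The 3 WT samples had 217.3, 245.7 and 237.7 normalized counts, and the mutant samples 14.3, 16.7 and 23.8. The lowest WT sample was well above the highest mutant sample. The WT mean of 233.5 was 12.8 times the mutant mean of 18.3 (95% counting interval 8.41 to 20.4), with 846 and 46 reads. The log2 fold change was −3.61, and 92 tested genes (0.566%) were as low or lower.

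Other transcripts around Gjd2 were lower as well. Its exons overlap, by 18 and 57 bases, 2 entries of the antisense gene A530058N18Rik on the opposite strand, which averaged 50.8 and 14.9 normalized counts in WT NSCs but 0.795 and 3.18 in the mutant cells. The sources used here do not say whether the counting used strand, so reads in those shared bases could belong to either gene. Actc1, which encodes cardiac actin and lies 33.7 kb away, averaged 115.4 normalized counts in WT NSCs but 25 in the mutant cells, a log2 fold change of −2.16. On the other side Arhgap11a, 161 kb away, was at 465.2 and 866.5.

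Markers of neurons moved with Gjd2. Of 10 neuronal markers 5 were tested, and 4 of these were past a doubling, all lower in Setd5+/-, namely Syt1, Dcx, Gad1 and Snap25. The summed level of the 10 was 1115 to 1204 normalized counts per WT sample and 172.7 to 190.5 per Setd5+/- sample, of which Gad1, the GABA-synthesizing enzyme, made up 747.9 and 96.1. Neurod1 and Neurod6, which define excitatory cortical neurons, were at 0 in both genotypes. What part neuronal cells had in the Gjd2 difference was not tested.

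Gjc3 encodes Cx29, a connexin of myelinating glia in the mouse, which lies on the minus strand of chromosome 5 from 137953461 to 137963098. It was the member that was higher in the mutant cells. In WT it had 320.1, 344.2 and 300.6 normalized counts, and in Setd5+/- NSCs 997.6, 988.4 and 1003. The 2 genotypes did not overlap, which was so for 65.3% of all tested genes (32.4% higher in Setd5+/-). The mean went from 321.6 to 996.3, a ratio of 3.1 (95% counting interval 2.8 to 3.42), on 1165 and 2509 reads. The log2 fold change was 1.63, and 736 tested genes (4.52%) were as high or higher. Of its neighbours, Zkscan1 was at 852.8 and 838.7 normalized counts, and the pseudogene Gm8099 at 379.3 and 203.3.

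The oligodendrocyte lineage, in which Gjc3 is best known, did not move with it as a whole. Of 8 tested markers of the lineage none was past a doubling in the direction of Gjc3, and Sox10 and Mbp were past it in the other direction. Thus 25% were past a doubling, against 16.4% of all tested genes. Sox10, the transcription factor of the lineage, averaged 298.2 normalized counts in WT but 1.59 in the mutant cells, while Cspg4, the antigen of the progenitors, was at 768.9 and 1448. Their summed level was 42112 to 42983 in WT and 25318 to 26264 in Setd5+/- samples, most of it from Olig1 and Olig2. The myelin gene Mog was at 1.93 and 0.

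Gja1 encodes Cx43, the leading connexin of astrocytes and of cortical progenitors, and collected the most reads of the 8 members in both genotypes. It lies on the plus strand of chromosome 10 from 56377330 to 56402513. Its WT samples stood at 1672, 1624 and 1703 normalized counts and its mutant samples at 1532, 1505 and 1485. Every mutant sample was below every WT sample, but so small a gap was common, since 65.3% of all tested genes showed no overlap between the genotypes, 32.4% higher and 32.9% lower in Setd5+/-. The ratio was 0.905 (95% counting interval 0.854 to 0.958) and the log2 fold change −0.14, and 40.5% of the tested genes were as low or lower. The nearest tested genes, Tbc1d32 and AC152949.2, had log2 fold changes of 0.22 and −0.04.

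Gjb6 and Gjb2 encode Cx30 and Cx26, the other connexins of astrocytes, and lie side by side on the minus strand of chromosome 14, from 57123303 to 57133611 and from 57098600 to 57104702. Gjb6 stood at 9.95, 16.5 and 11.6 normalized counts in the WT samples against 2.38, 4.76 and 2.38 in the mutant ones. The samples did not overlap, which was so for 65.3% of all tested genes, and the whole difference rests on 46 and 8 reads. The WT mean was 4 times the mutant mean (95% counting interval 1.37 to 15.9), and with a mean of 7.94 over the 6 samples the gene was below the minimum for a call. For Gjb2 the WT samples gave 0, 1.65 and 3.31 normalized counts and the mutant samples 4.77, 4.76 and 2.38. Its samples overlapped, and its ratio of 2.4 had a counting interval from 0.466 to 15.4, on 6 and 10 reads. A difference in Gjb2 was thus not detectable at this depth. The nearest tested genes around the pair, Zmym2 and Cryl1, had log2 fold changes of −0.25 and 0.52.

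The markers of astrocytes split. Of 8 tested, Gfap, Aqp4 and S100b were past a doubling and higher in Setd5+/-, Slc1a2 and Aldh1l1 past it and lower. That is 62.5%, against 16.4% of all tested genes. The intermediate filament gene Gfap went from 17.1 to 263.3 normalized counts and the glutamate transporter gene Slc1a2 from 4678 to 1225. The summed level of the list was 18428 to 18719 in WT samples and 14924 to 14968 in Setd5+/- samples. Their part in the values of Gja1 and Gjb6 was not tested.

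Panx1 encodes the pannexin that opens as an ATP-release channel, and lies on the minus strand of chromosome 9 from 15002128 to 15045478. It reached 568.9, 575.8 and 592.9 normalized counts in WT, against 396.9, 328.7 and 418.1 in Setd5+/-. The highest mutant sample remained below the lowest WT sample, as it did for 32.9% of all tested genes. The ratio was 0.658 (95% counting interval 0.59 to 0.734) and the log2 fold change −0.60, short of a doubling, with 14.8% of the tested genes as low or lower. Of its neighbours, the receptor gene Gpr83, 131 kb away, averaged 27.9 normalized counts in WT but 1.59 in the mutant cells (log2 fold change −3.48), and Med17 was at 519.3 and 436.4.

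Panx2, which encodes a pannexin found mainly in the brain, lies on the plus strand of chromosome 15 from 89059734 to 89073567. Its WT samples gave 8.29, 7.45 and 11.6 normalized counts, its mutant samples 7.15, 11.9 and 13.1. The 2 genotypes overlapped, with a ratio of 1.18 and a counting interval of 0.541 to 2.55. It shares 2372 bases with 1810021B22Rik on the opposite strand, which had 11.3 and 11.1 normalized counts, so its reads are uncertain if strand was not used. Its neighbours Mlc1 and Trabd had log2 fold changes of −0.10 and 0.04. Over all members, the list of nearest tested genes had 16 entries, in which Zmym2 and Cryl1 stand for both Gjb2 and Gjb6. Of the 16 entries 2 were past a doubling, Actc1 and Gpr83, both lower. The share over all tested genes was 16.4% in either direction, so such neighbours were not unusual.

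**Figure D2:**
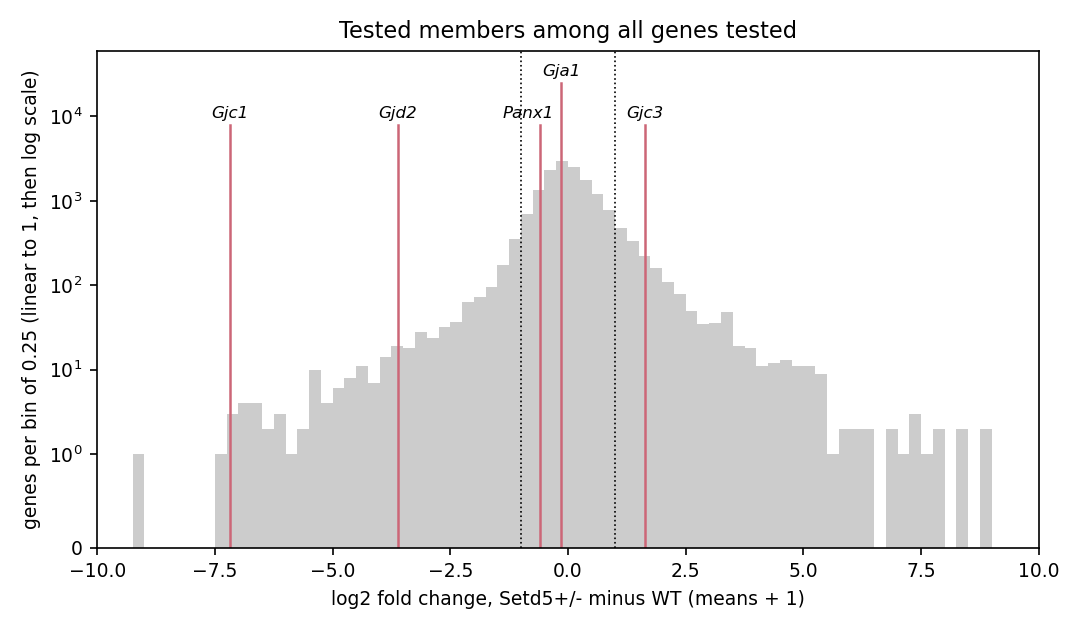
Number of tested genes per bin of 0.25 in log2 fold change (Setd5+/- minus WT, on means plus 1), with the vertical axis linear up to 1 and logarithmic above, and red lines at the 5 tested members. Dotted lines mark a doubling: Gja1 (−0.14) and Panx1 (−0.60) lie inside them, Gjc3 (1.63) beyond the right one, and Gjd2 (−3.61) and Gjc1 (−7.18) in the sparse left tail.

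Since longer transcripts collect more reads, genes were compared with each other per kilobase. With all exons of a gene joined, the connexins summed to 375.4 normalized counts per kb in WT (365.1 to 390.9 over the samples) and 400.6 in Setd5+/- (398.5 to 402.1). On this scale the order in WT was Gja1 (162.4 per kb), Gjd2 (81.1), Gjc3 (73.8) and Gjc1 (40.2), and in Setd5+/- Gjc3 (228.7) stood above Gja1 (147.0), with Gjd2 at 6.34 and Gjc1 at 0.0794. The share of Gjc3 in the summed level went from 19.7% to 57.1%, that of Gja1 from 43.3% to 36.7%, that of Gjd2 from 21.6% to 1.58% and that of Gjc1 from 10.7% to 0.0198%.

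The place of Gja1 depended on the length used, because its annotated exons join to 10257 bases while its longest principal transcript has 3182. Per kilobase of the principal transcript, a length chosen after seeing the data, Gja1 stood first in both genotypes, at 523.6 in WT and 473.7 in Setd5+/-. Its share of the summed connexin level was then 65.9% and 63.2%, and that of Gjc3 10.1% and 33.2%. Gjd2 (10.2% to 0.846%) and Gjc1 (10.9% to 0.0229%) were minor in Setd5+/- by either length, and the summed level was 794.3 per kb in WT and 750.1 in Setd5+/-. In the WT library, Gjc1 (87 per kb), Gjd2 (81.1) and Gjc3 (80.4) were too close to be ordered on this scale. Their shares over the samples overlapped (10.1% to 11.9%, 9.66% to 10.6% and 9.45% to 10.7%). With all exons the shares of Gjd2 (20.7% to 22.3%), Gjc3 (18.7% to 20.2%) and Gjc1 (10% to 11.3%) did not overlap. Panx1 made up 97.4% of the summed pannexin level in WT and 95.5% in Setd5+/- by either length.

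**Figure D3:**
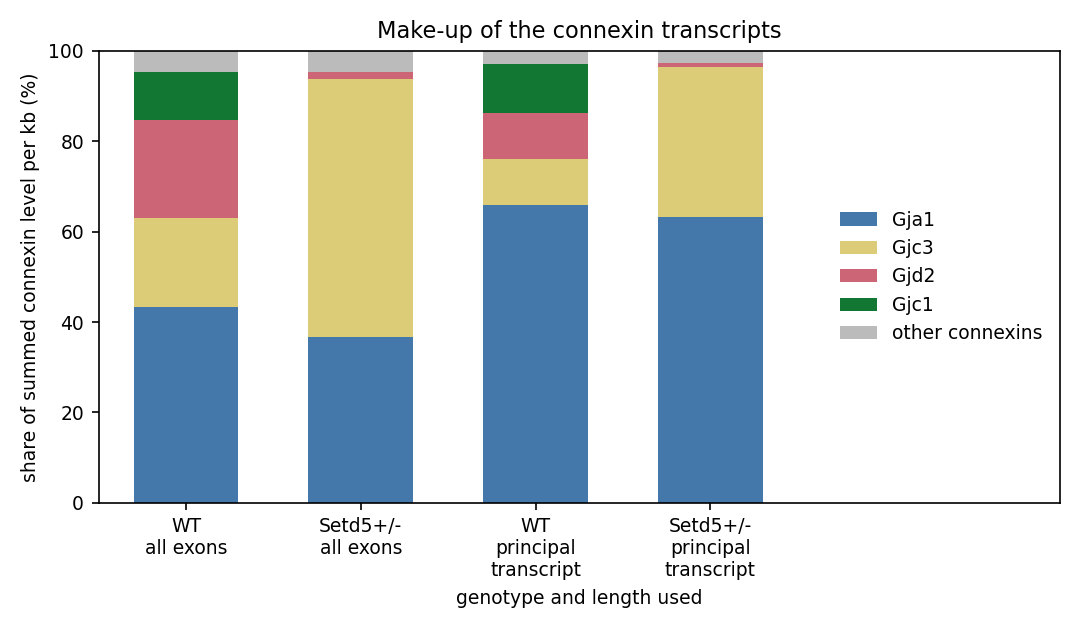
Share in percent of each connexin in the summed connexin level per kilobase, in WT and Setd5+/- NSCs, with lengths from all exons joined (left pair of bars) or from the longest principal transcript (right pair). By either length Gjd2 and Gjc1 shrink to under 2% in Setd5+/- and Gjc3 widens, whereas Gja1 ranges from 36.7% to 65.9% with the genotype and the length.

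Among the 15 other genes of the family, 2 were tested and none was past a doubling. Gja5, which encodes Cx40 of arterial endothelium and heart, gave 20.7, 25.6 and 14.9 normalized counts in WT, against 9.53, 19.1 and 8.34 in the mutant samples. These overlapped, with a ratio of 0.603 (95% counting interval 0.323 to 1.15). Gja6 had 6 reads in WT and 16 in Setd5+/-, a ratio of 3.83 with a counting interval from 0.921 to 22.4. This value rests on too few reads to tell a difference. Gjb1 and Gjd3 had 2 reads each in WT and 0 in Setd5+/-, and 9 genes of the family had none in either library, among them Gja3, Gja4, Gja10, Gjb5, Gjd4, Gje1 and Panx3. A gene with no read in a library could still have had up to 3 read pairs there.

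No member's transcripts matched another gene over 100 bases or more at 95% identity. The closest pairs among the members' matches were Gja1 with Gja6 (76% over 797 bases) and Gjb2 with Gjb6 (76.2% over 680 bases).

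The proteins that hold, modify and move gap junctions were followed as 3 lists set by role. Of 17 tested scaffold and adhesion genes, 3 were past a doubling and higher (Cav1, Cav2 and Vcl) and Cdh11 was past it and lower. That is 23.5% of them, against 16.4% of all tested genes, and their median log2 fold change was 0.29. Cav1, which encodes the coat protein of caveolae, went from 53 normalized counts in WT to 531.7 in Setd5+/-, and the cadherin gene Cdh11 from 269.4 to 33.8. Tjp1, whose product ZO-1 binds the tail of Cx43, stood at 1769 and 2421. Cdh2 (N-cadherin) was at 1055 and 1524, and Ctnnb1 (beta-catenin) at 11024 and 13491. The members of this list with the largest differences were thus caveolar and cadherin genes, while the ZO-1 and N-cadherin genes were higher in Setd5+/- by less than a doubling.

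Of 24 tested kinases and phosphatases that act on Cx43, 2 were past a doubling and higher, Ptprm among them, and Mapk7 was past it and lower. This share of 12.5% was below the 16.4% of all tested genes, and the median was −0.01. Ptprm, a receptor tyrosine phosphatase gene, went from 310.9 to 742.2 normalized counts, and Mapk7, the ERK5 kinase gene, from 1660 to 551.6. Other kinases known to phosphorylate Cx43 differed less: Prkca was at 473.4 and 650.1, Src at 1190 and 973.3, and Csnk1d at 1917 and 1588. Of 20 tested genes of transport and removal, only Dab2, a clathrin adaptor gene, was past a doubling (350.3 to 154.9). That is 5%, against 16.4% of all tested genes, and the median was −0.05. Eps15, another endocytic adaptor gene, was at 1147 and 2291, just short of a doubling on the log2 scale with 1 added. Nedd4, whose ubiquitin ligase acts on Cx43, was at 9647 and 14494, and Cnst, whose product consortin carries connexins to the surface, at 232.7 and 378.8.

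The receptors and enzymes that handle released ATP formed another list. Of its 15 tested genes, 10 were past a doubling (66.7%, against 16.4% of all tested genes), 8 of them higher and 2 lower, and the median log2 fold change was 1.16. The higher genes included the ATP-gated channels P2rx7 (629.5 to 1694 normalized counts), P2rx4 (103.3 to 239.8), P2rx3 (29.8 to 127.1) and P2rx6 (27.3 to 85). They also included the G protein-coupled receptors P2ry1 (58.8 to 198.9) and P2ry2 (15.5 to 110.4), and the ectoenzymes Enpp1 (7.73 to 336.4) and Nt5e, the last with overlapping samples (8.01 to 19.1). Adora2b, an adenosine receptor, went from 167.3 to 65.5, and the phosphatase Alpl from 317.5 to 130.6. These counts depend on the minimum mean of 10, which Enpp1 and Nt5e reached only through their Setd5+/- values. A further 10 genes of the list had reads but were below it, among them Adora2a (14.4 to 1.59) and P2rx5 (4.97 to 9.53). Of the tested P2X and P2Y receptors past a doubling, all 6 were thus higher, while Panx1, a source of extracellular ATP, was lower by less than a doubling.

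Among 11 tested genes of other large-pore channels, 5 were past a doubling (45.5%, against 16.4% of all tested genes), with a median of 0.92. Lrrc8b, Lrrc8c and Lrrc8d, subunits of the volume-regulated anion channel, were higher at 935.6, 612.7 and 1287 normalized counts in Setd5+/- against 257.9, 182.8 and 568.5 in WT. Lrrc8a, the subunit that this channel cannot do without, was at 528.4 and 999.1. Tmem63a, better known as a stretch-activated cation channel, went from 190.5 to 814.5, and Vdac2, the mitochondrial outer membrane pore, from 1196 to 543.6. Tmem63a and Cnst lie on chromosome 1, where the median log2 fold change of 1044 tested genes was 0.53, against −0.04 on the other chromosomes. No connexin or pannexin member lies there. Over all 87 tested genes of these lists, 23 were past a doubling (26.4%), 17 higher and 6 lower. For all tested genes the share was 16.4%, with 10.3% higher and 6.14% lower.

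**Figure D4:**
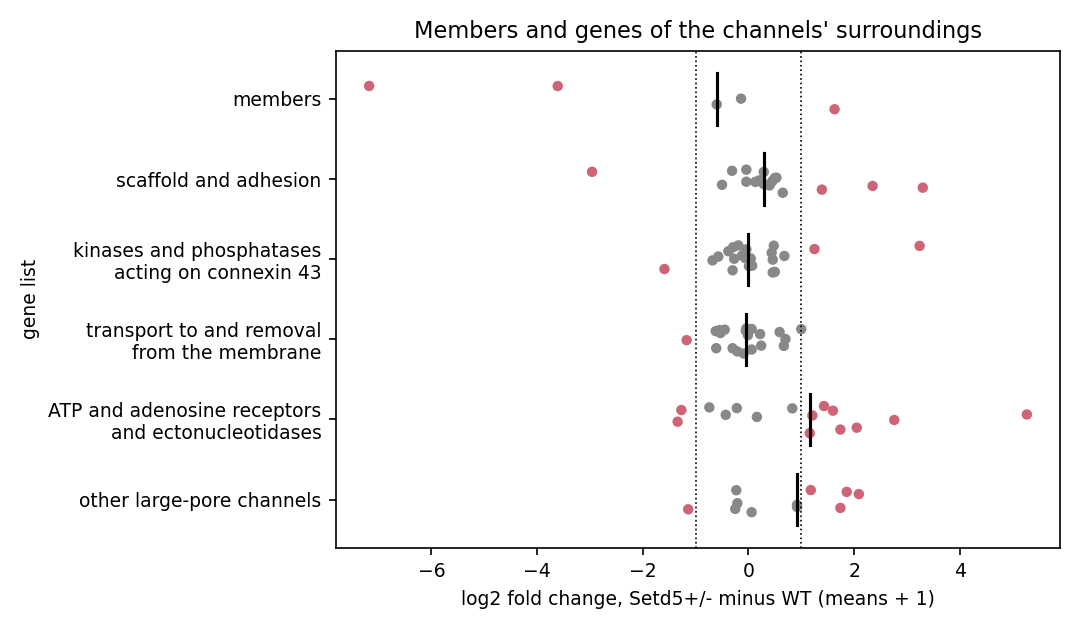
Log2 fold change (Setd5+/- minus WT, on means plus 1) of each tested gene of the members and of the 5 lists around them, with points past a doubling in red, a black line at the median of each list, and dotted lines at a doubling; the vertical scatter within a list has no meaning. The medians of the ATP list (1.16) and of the other large-pore channels (0.92) lie to the right, those of the kinases (−0.01) and transport genes (−0.05) near 0, and that of the members at −0.60.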

How the data were processed

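RNA-seq libraries were made with a TruSeq RNA v2 kit. Per the labels, the authors trimmed reads with Trimmomatic, aligned them to mm10 with Bowtie2 and used DESeq2, and versions and the counting program are not given in the sources used here. The authors deposited counts divided by size factors, with many decimal points lost or moved, and columns of their own comparison (log2 fold change, standard error, statistic, p-values), which were not used. Points were restored where a value became a whole number of reads (tolerance 0.01), and in 1116 of 52438 genes the deposited mean settled the choice. A further 672 of 53110 listed genes had no values.

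Means over the 3 samples were compared as a 2-fold difference with a pseudocount of 1 and a minimum mean of 10. Intervals are exact binomial (Clopper-Pearson) at 95% on read pairs, since 73.9% to 76.5% of genes with 1 to 10 reads had an even number. The restoring of points and the calls were tested on simulated data. Positions and lengths are from GENCODE release M21 (GRCm38), promoters from RefSeq (GRCm38.p6) and transcript matches from blastn 2.17.0, with pandas 2.3.3 and scipy 1.17.1 in python 3.11.15.

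The members, gene lists and tests were chosen with earlier results of these data known. Named were all members, family genes with at least 3 reads, the largest rise and fall of each list, 13 genes chosen by role, and the nearest tested gene on each side of a member. Other genes (list genes past a doubling, markers, and genes overlapping a member) were named after their values were seen. Some genes that this rule names are not reported here. Alternatives were other scalings, pseudocounts, minimums, a 1.5-fold threshold, means of logs, each sample left out, values free of the deposited mean, and another gene length.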

Additional observations from a re-analysis of the deposited data

How the results depend on the processing

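Each genotype is 1 library, so nothing here measures how cultures or clones differ, and genes with few reads (Gjb2, Gjb6, Panx2) are limited by depth. The count of 2666 genes past a doubling became 1620 (1032 higher) with a minimum mean of 50, 5541 (3141 higher) with no minimum and 5722 (3201 higher) at 1.5-fold. The family count of 3 became 5 with no minimum and 5 at 1.5-fold, the members' count of 3 became 4 under each of these settings, and the count of genes in the surrounding lists, 23, became 31 with no minimum and 36 at 1.5-fold. These settings admit or drop genes by construction. With each sample left out, the genes past a doubling ranged from 2669 to 2745, those higher from 1626 to 1766, the family from 3 to 4, the members' count was 3 each time, and the surrounding lists ranged from 22 to 25. The members' log2 fold changes then ranged from −0.16 to −0.13 (Gja1), 0.51 to 1.44 (Gjb2), −2.02 to −1.50 (Gjb6), −7.66 to −6.99 (Gjc1), 1.58 to 1.68 (Gjc3), −3.83 to −3.46 (Gjd2), −0.67 to −0.51 (Panx1) and 0.06 to 0.42 (Panx2). With a pseudocount of 5 the log2 fold change of Gjc1 was −5.26 instead of −7.18 (−7.81 with 0.5) and that of Gjb6 −1.11 instead of −1.71. No member changed direction under any scaling, pseudocount or omitted sample, and scaling moved the median of tested genes to −0.06 at most. Panx2 has no value without the deposited mean, which placed one of its points. No paired analysis was possible because the result comes from no test and the samples of a genotype are parts of 1 library.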
